A study of Homo sapiens with 8 samples.

Results

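Of the 594 miRNAs in the table, 50 carry a name with neither a 5p nor a 3p ending and are described here. They were chosen by name alone: of 67 names without an arm, 17 were set aside by the rule (miR-107, the miR-320 names, miR-429, miR-451a, miR-484, miR-1248, miR-1291, miR-3609, miR-3651, miR-12136 and the chromosome 19 cluster names). Of the remaining names in the table, 227 end in 5p and 300 in 3p. All 50 members passed the filter on low values, which asked for at least 5 RPM (reads scaled to a denominator set for each library) in at least 2 libraries. Small RNAs were sequenced in the H1 line of human embryonic stem cells, in 8 libraries with 2 for each of 4 genotypes. These were wild-type Dicer, Dicer-S1344L on both alleles (homozygous), Dicer-S1344L on a single allele (hemizygous), and Dicer-null. The altered lines were made with CRISPR-Cas9, and the labels give no drug, time point or number of clones per genotype. The study asked what a hotspot substitution of Dicer seen in cancers does to miRNAs.

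Dicer is the RNase III enzyme that cuts the hairpin precursor of a miRNA near its loop and so frees a duplex of the 5′ strand and the 3′ strand. Its RNase IIIb domain makes the cut that releases the 5′ strand and its RNase IIIa domain the cut that releases the 3′ strand, and S1344L lies in the RNase IIIa domain. A mature miRNA gets the ending 5p or 3p when both strands of its hairpin have been annotated, so a name without an ending usually means that a single strand was entered. Some such entries came from early deep sequencing and overlap fragments of tRNA, rRNA or snoRNA, which do not need Dicer. The seed, bases 2 to 8 of a mature miRNA, is the stretch that pairs with target mRNAs.

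The members fell into groups by what happened without Dicer, and mature sequences are printed for those that each group turns on, 5′ to 3′, with the seed in capitals (RefSeq, GRCh38.p14). RefSeq held a mature sequence for 47 of the 50; miR-1272, miR-3143 and miR-636 are named only. The first set is the 5 members that were called lower in all 3 mutants. 
miR-3943: uAGCCCCCaggcuucacuuggcg
miR-1270: cUGGAGAUauggaagagcugugu
miR-2110: uUGGGGAAacggccgcugagug
miR-421: aUCAACAGacauuaauugggcgc
miR-326: cCUCUGGGcccuuccuccag
miR-3943 lies at chr7:43150917-43150939 (+) inside HECW1 and in none of its exons, by GENCODE v29. The position of miR-1270 is chr19:20399320-20399342 (-) inside the pseudogene ZNF826P, and that of miR-2110 is chr10:114174151-114174172 (-) over an exon of CCDC186. miR-421 is at chrX:74218392-74218414 (-) within the noncoding gene FTX, outside its exons. miR-326, at chr11:75335108-75335127 (-) and outside the exons of ARRB1, is known as a regulator of Hedgehog signalling. miR-326 has the seed of miR-330-5p, and the other 4 share a seed with no other measured miRNA.

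The second set holds members called lower in the Dicer-null cells and not called in either S1344L genotype, with a relative of the last for comparison.
miR-935: cCAGUUACcgcuuccgcuaccgc
miR-551a: gCGACCCAcucuugguuucca
miR-1264: cAAGUCUUauuugagcaccuguu
miR-940: aAGGCAGGgcccccgcucccc
miR-302e: uAAGUGCUuccaugcuu
miR-302d-3p: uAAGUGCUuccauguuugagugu
miR-935 is at chr19:53982362-53982384 (+) over an exon of CACNG8, miR-551a at chr1:3560710-3560730 (-) inside MEGF6, and miR-1264 at chrX:114652696-114652718 (+) inside HTR2C. miR-940 lies at chr16:2271806-2271826 (+) over an exon of the lincRNA AC009065.4. The position of miR-302e is chr11:7234771-7234787 (+), in no annotated gene. Its seed is that of miR-302a-3p to miR-302d-3p, miR-372-3p and miR-373-3p, the family for which human embryonic stem cells are known. The first 14 of the 17 bases of miR-302e are those of miR-302d-3p, so reads given to it are uncertain. The same holds for miR-378c, whose first 20 of 25 bases are those of miR-378a-3p.

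The third set holds members that were not called lower without Dicer.
miR-4521: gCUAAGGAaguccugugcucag
miR-7974: aGGCUGUGaugcucuccugagccc
miR-573: cUGAAGUGauguguaacugaucag
miR-4517: aAAUAUGAugaaacucacagcugag
miR-3662: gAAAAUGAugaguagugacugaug
miR-4449: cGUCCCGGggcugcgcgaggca
miR-1275: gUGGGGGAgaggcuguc
miR-1260b: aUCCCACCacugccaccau
miR-4454: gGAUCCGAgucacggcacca
miR-7977: uUCCCAGCcaacgcacca
miR-4521 is at chr17:8186948-8186969 (+) in no annotated gene, and miR-7974 at chr19:11495544-11495567 (-) inside ZNF653. miR-573 lies at chr4:24520252-24520275 (-) inside DHX15, the gene of an RNA helicase, and miR-4517 at chr16:28958587-28958611 (+) over an exon of NFATC2IP. miR-3662 is at chr6:134979355-134979378 (-) inside HBS1L, miR-4449 at chr4:52712720-52712741 (+) inside the noncoding gene DANCR, a known host of snoRNAs, and miR-1275 at chr6:34000018-34000034 (-) in no annotated gene. Letters shared by some of these were looked for after the sequences were seen. The letters ACCA, on the printed strand, fall within the last 5 bases of miR-1260b, miR-4454 and miR-7977, that is of 3 of 47 members, 0.412% of 486 other measured miRNAs and 0.595% of 2351 human mature miRNAs in RefSeq. Tails that end in CCA are added to tRNAs. UGAUGA is in miR-3662 and miR-4517 and in 0.823% of the other measured miRNAs; it resembles the C box of box C/D snoRNAs. CUGA, the letters of the D box, is in 8 of 47 members and in 9.67% of the others. No member matched in full a snoRNA, snRNA, rRNA or other small RNA transcript of GENCODE v29 (0 of 47), while 4 of 14 of the names set aside did. Those transcripts hold no nuclear tRNA and no added CCA tail, so the search says nothing on tRNA.

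Libraries held between 137655 and 2725756 miRNA reads, fewest in the Dicer-null pair. RPM here are reads over the deposited denominator of each library with 0.5 of a read added by the authors, so 0 reads appear as 0.357 to 0.665 RPM in the null libraries. The denominators are not the miRNA totals: the reads came to 2.09 to 2.43 times the denominator in 5 libraries outside the null, to 0.118 and 0.183 times in the null, and to 0.729 times in hemizygous replicate 1, which stands apart. On this scale the median of all 594 miRNAs lay 4.49 log2 units below wild type in the null. Dicer itself is an mRNA and is not in a table of small RNAs. The 8 pluripotent stem cell markers on a fixed list (the miR-302 family, miR-367-3p, miR-371a-5p, miR-372-3p and miR-373-3p) were all measured, and summed to between 369244 and 1195320 RPM outside the null and to 61848 and 83726 RPM in it. Of markers of other cells, 5 of 7 fibroblast, 3 of 3 neural and 3 of 4 blood miRNAs were measured and none was at 0 in all libraries. The fibroblast list summed to 21542 and 29733 RPM in the wild type, to 2182 to 11918 RPM in the S1344L libraries and to 1178 and 1986 RPM in null libraries. The neural list ranged from 17088 to 19361, from 12107 to 29548 and from 698 to 1045 RPM in the same order. The blood list ranged from 1265 to 1475, from 317 to 1248.5 and from 13.9 to 28.6 RPM. Their part in the results was not tested, and in bulk samples fewer cells of a type and less RNA per cell cannot be told apart. Members took 0.664% to 0.674% of the miRNA reads in the wild type, 0.643% to 0.804% in the S1344L libraries, and 1.89% (95% Wilson interval 1.82 to 1.95) and 3.06% (2.97 to 3.15) in the null, intervals that cover counting error only.

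Without Dicer 31 of the 50 members fell and the other 19 were not called changed. By limma on log2(RPM + 1), those 31 members were lower in the null than in the wild type and 0 were higher, at a Benjamini-Hochberg adjusted p under 0.05 over all 594. At an unadjusted p under 0.05, and by voom on recovered reads, 0 were higher as well. Of all miRNAs tested, 87.2% were called lower and 1.35% higher. Among the members 62% were called lower, against 89.9% of 5p names (204 of 227), 90.7% of 3p names (272 of 300) and 64.7% of the names set aside (11 of 17). The median difference of the members was -2.76 log2 units (range -7.07 to 1.96), and -2.55 with the 6 members at 0 reads in both null libraries put at their bound, against -4.77 for 5p and -4.35 for 3p names. No count between the kinds of name was tested. The 31 fell to between 0.794% and 23.5% of the wild-type mean, with a median of 3.34%. In each the null pair lay below the wild-type pair. Their call in the same libraries makes that order likely, and it was not counted over all miRNAs. These counts turn on the scale: with reads scaled to the miRNA total of each library 13 members were lower and 18 higher, and with median-ratio scaling 10 were lower and 20 higher. Of all 593 miRNAs tested there, 265 were lower and 80 higher with the first scaling, and 165 and 123 with the second. Those scalings moved the median of all miRNAs from -4.49 to -0.84 and -0.23 log2 units; a difference is therefore read relative to that shift. Of the 31, 9 took a positive difference when scaled to miRNA reads and 13 with median-ratio scaling.

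**Figure D1:**
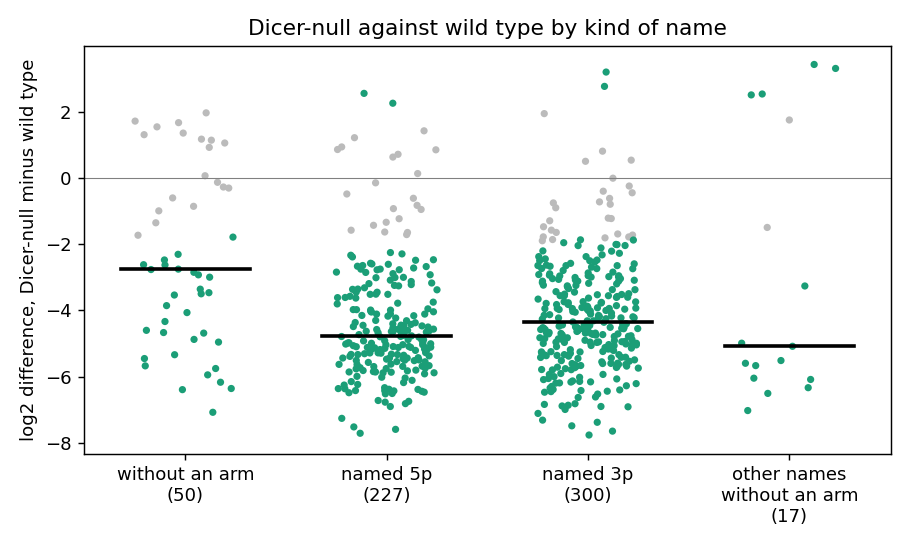
Difference between Dicer-null and wild type in log2(RPM + 1) for each miRNA (vertical axis), split by kind of name (horizontal axis, with small random offsets). Points are single miRNAs, green where called by limma and grey where not, and bars are medians, -2.76 for the 50 members against -4.77 for 5p and -4.35 for 3p names on the deposited scale. Scaled to miRNA reads, 18 members lie higher and 13 lower, and of all 593 miRNAs tested 80 and 265.

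The clearest losses were in 10 members called lower on the deposited scale and under both other scalings: miR-1264, miR-1270, miR-326, miR-3943, miR-421, miR-548k, miR-551a, miR-643, miR-935 and miR-941. miR-421 was at 1981 and 1637 RPM in the wild type and at 6.79 and 22.0 RPM in the null, a difference of -7.07 ± 0.97 log2 units (SE, adjusted p 1.42e-11). This was the largest fall among the members, to 0.794% of the wild-type mean. Here and below, the SE comes from a variance shared by miRNAs of like level, not from a member's own replicates. miR-935 went from 1202 and 1397 RPM to 18.2 and 32.6 RPM (-5.67 ± 0.92, adjusted p 5.05e-09). miR-551a went from 468 and 564 RPM to 5.36 and 9.98 RPM (-5.94 ± 0.96, adjusted p 4.88e-09). They kept 1.96% and 1.49% of their wild-type means, and the pairs lay far apart. miR-1264 had 152 and 165 reads in the wild type and 0 and 2 in the null (-5.75 ± 1.0, adjusted p 4.02e-08). miR-941, which RefSeq places at 5 near-identical loci so that its reads cannot be given to 1 of them, fell from 220.0 and 290.5 RPM to 4.64 and 5.99 RPM (-5.34 ± 1.0, adjusted p 3.06e-07).

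Other losses were as deep on the deposited scale but not called under every scaling. miR-940 had 666 and 437 RPM in the wild type and 1.79 and 19.3 RPM in the null (-6.17 ± 0.99, adjusted p 3.27e-09), and missed the threshold with median-ratio scaling at an adjusted p of 0.0664. The null replicates of miR-940 differ by 2 against 14 reads. miR-302e, the short relative of the stem cell family, had 1883 and 1744 RPM in the wild type and 61.1 and 60.6 RPM in the null (-4.87 ± 0.91, adjusted p 2.29e-07), and -0.38 log2 units with median-ratio scaling (adjusted p 0.345). Its relative miR-302d-3p had 122009 and 125150 RPM in the wild type and 5937 and 9334 RPM in the null. Both lost most of their level in both null libraries. No read in either null library was found for 6 members, miR-643, miR-548k, miR-3909, miR-184, miR-548u and miR-544b. Against a limit of 3 reads per null library these were at least 12.5-fold, 10.1-fold, 6.77-fold, 5.41-fold, 3.61-fold and 3.43-fold lower than the wild-type mean, in that order. miR-184, known for its expression in the lens and cornea of the eye, had 24 and 16 reads in the wild type.

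The 19 members that were not called lower stood at 14.8% to 423% of their wild-type mean in the null, with a median of 151%. In 16 of them the null and wild-type pairs overlapped, and in miR-3662, miR-3917 and miR-4449 both null libraries lay above both wild-type ones. Such orders were not counted over all miRNAs. The most abundant was miR-4521, with 732 and 3090 RPM in the wild type and 924 and 1602 RPM in the null (-0.31 ± 0.86, adjusted p 0.729). Its wild-type replicates differ by more than the groups do. miR-4449 had 73.6 and 23.5 RPM in the wild type and 84.0 and 327 RPM in the null, the highest difference of any member (1.96 ± 1.0, adjusted p 0.0564). This passed the threshold without either hemizygous library, without null replicate 1, with a pseudocount of 5 RPM, in a fit of 4 libraries and under both other scalings, with values from 1.86 to 6.39. miR-3662 had 12 and 3 reads in the wild type and 19 and 22 in the null (1.72 ± 0.91, adjusted p 0.0656). It passed the threshold with a pseudocount of 5 RPM (1.24, adjusted p 0.0493) and in the fit of 4 libraries (1.72, adjusted p 0.0326). miR-1272 had 228 and 43.2 RPM in the wild type and 218 and 466 RPM in the null (1.67 ± 0.98, adjusted p 0.0966), so the null pair overlapped the wild-type one. miR-573 followed the same order with 160.0 and 25.2 RPM against 100.4 and 352 RPM (1.54 ± 1.0, adjusted p 0.133). So did miR-1275, with 127 and 60.3 RPM against 111 and 457 RPM (1.35 ± 0.98, adjusted p 0.18). These 5 members from miR-4449 on were called higher under both other scalings, where 80 and 123 of all 593 miRNAs were. In all 5, replicate 1 was the higher wild-type library and the lower null library on the RPM scale. The null direction is common: replicate 1 minus replicate 2 there had a median of -0.8 log2 units over all 594 miRNAs.

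**Figure D2:**
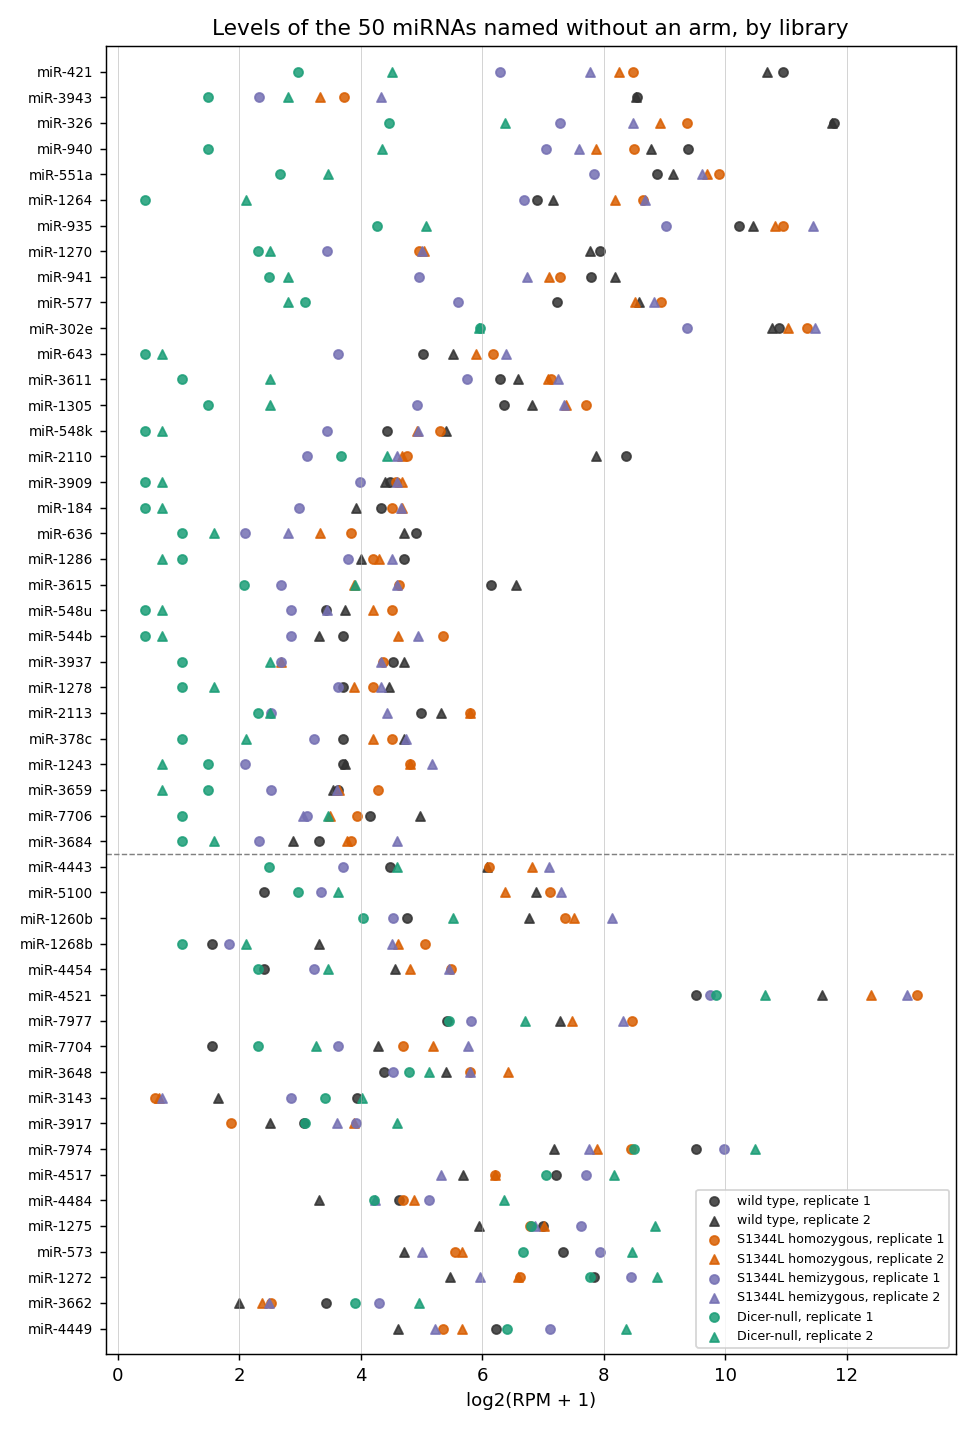
Level of each of the 50 members in each of the 8 libraries, as log2(RPM + 1) (horizontal axis), ordered from the lowest to the highest difference between Dicer-null and wild type. Colour gives the genotype and shape the replicate; the dashed line parts the 31 members called lower in the null on the deposited scale, whose green points lie left of the black ones, from the 19 not called, of which 16 overlap.

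As a sum, the 50 members kept part of their level without Dicer. They came to 14796 ± 1011 RPM (SD, n = 2) in the wild type and to 3944 ± 2398 RPM in the null, a log2 difference of -2.05 (exact permutation p 0.333, two-sided, the smallest that 2 against 2 libraries allow). The split by call in the null that follows is a description, and the split itself sets its contrast. The 31 summed to 11707 and 11517 RPM in the wild type and to 168 and 331 RPM in the null. The other 19 summed to 2373 and 3993 RPM in the wild type and to 2080 and 5308 RPM in the null. On the scale of miRNA reads the sign of the summed difference turns (1.85, and 2.46 with median-ratio scaling).

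The members called lower in the null and those not called differed in features that the counts did not use. The split is that of the deposited scale, and 13 and 10 members were lower under the other scalings. RefSeq gave a hairpin for 40 members, folded with RNAfold. The minimum free energy had a median of -39.8 kcal/mol in 26 hairpins of members called lower and of -27.2 kcal/mol in 14 hairpins of those not called, and per 100 bases of hairpin the medians were -45.9 and -36.5. The ranges overlap, from -65.5 to -14.8 and from -47.5 to -15.0. The hairpin of miR-421 folds at -35.0 kcal/mol, that of miR-935 at -61.2 and that of miR-4521 at -17.1. Among exceptions, miR-1243 fell (-2.62 ± 0.91, adjusted p 0.00509) with the weakest fold of the lower group, -14.8, while the hairpins of miR-4449 and miR-5100 fold at -47.5 and -47.4 and neither was called. Mature length was 21 to 23 bases, the usual length of a Dicer product, in 26 of 30 members called lower and in 4 of 17 of the others. The others held 9 of 20 bases or less and 4 of 24 bases or more. The first base was A or U in 23 of 30 against 8 of 17, and the median share of G and C was 48.9% against 61.1%. These are descriptions with no test, and members also differ in their level: the median wild-type mean was 38.2 RPM in the first group and 48.6 RPM in the second.

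**Figure D3:**
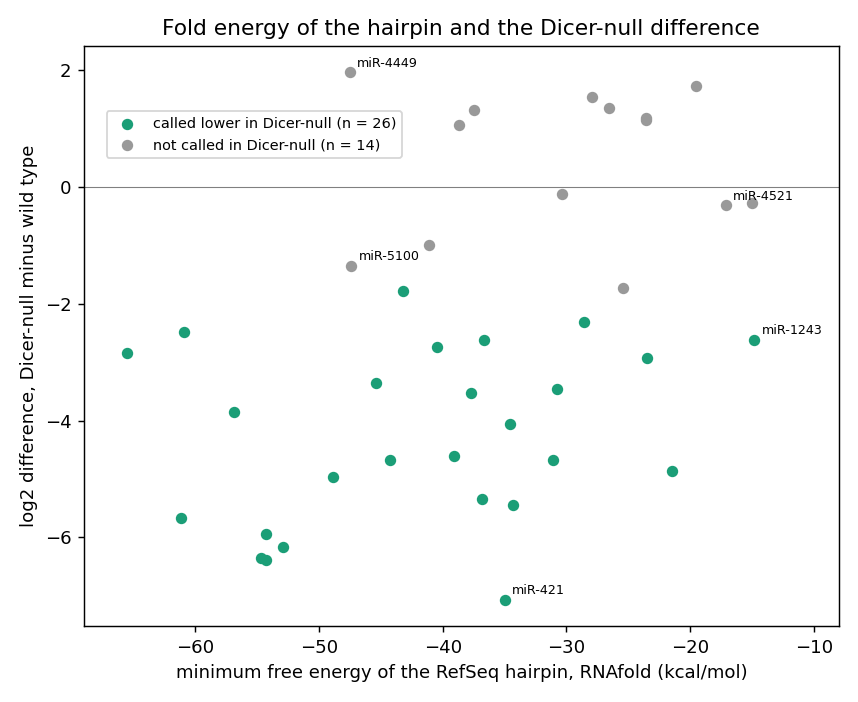
Minimum free energy of the RefSeq hairpin by RNAfold in kcal/mol (horizontal axis, more stable to the left) against the log2 difference between Dicer-null and wild type (vertical axis, deposited scale) for the 40 members with a hairpin sequence. Green points are the 26 members called lower (median -39.8) and grey points the 14 not called (median -27.2); the groups overlap along the energy axis, and scaled to miRNA reads 9 of the 31 members called lower have a positive difference.

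In the homozygous S1344L cells most members stayed near or above their wild-type level, and 5 that were also lower in the null fell. By limma 6 of 50 members were lower than in the wild type and 2 higher, where 22.2% of all miRNAs were called lower and 9.93% higher. The median of the members was 0.37 log2 units, against -0.04 for all miRNAs, -2.25 for 5p names and 0.68 for 3p names. With miRNA-read scaling 7 were lower and 3 higher, and with median-ratio scaling 6 and 12. Of all 593 miRNAs tested, 200 were lower and 113 higher with the first scaling, and 175 and 184 with the second. The 6 lower members were miR-3943, miR-2110, miR-1270, miR-326, miR-421 and miR-3143. In fits of the 4 libraries of this comparison alone 7 members were lower and 9 higher, and of all 591 miRNAs tested 214 and 156. The counts lean on single libraries, as 1 member was lower without wild-type replicate 1 or without either homozygous library, and 2 without wild-type replicate 2.

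The strongest fall was in miR-3943, at 371 and 367 RPM in the wild type and 12.2 and 9.02 RPM in the homozygous libraries (-5.01 ± 0.97, adjusted p 1.41e-05). The hemizygous libraries held 4.01 and 19.2 RPM (-5.20 ± 0.97, adjusted p 2.27e-06) and the null 1.79 and 5.99 RPM (-6.39 ± 0.97, adjusted p 6.11e-10). Its call held against the wild type in each mutant when any 1 library was left out. On the deposited scale the homozygous level was 2.87% of wild type and the null level 1.05%. The difference between those mutants was not called (1.38 ± 0.97, adjusted p 0.178). Of 2289926 and 1814568 homozygous miRNA reads 11 and 7 were miR-3943, and of 165317 and 137655 null miRNA reads 2 and 4. Per miRNA read the null level is thus the higher. miR-2110 had 329.8 and 233 RPM in the wild type, 26.0 and 24.6 RPM in homozygous, 7.65 and 23.1 RPM in hemizygous and 11.8 and 20.6 RPM in null libraries. Its differences from wild type were -3.40 ± 1.0, -4.27 ± 1.0 and -4.06 ± 1.0 (adjusted p 0.00396, 0.000146 and 7.89e-05). All 3 mutants thus lay at 5.47% to 8.99% of the wild-type mean, and neither S1344L genotype was called different from the null; with median-ratio scaling the null difference of miR-2110 turned to 0.36. miR-1270 had 243 and 218 RPM in the wild type, 30.2 and 31.9 RPM in homozygous, 9.84 and 31.1 RPM in hemizygous and 3.93 and 4.66 RPM in null libraries. Its differences from wild type were -2.85 ± 0.99, -3.63 ± 0.99 and -5.45 ± 0.99 (adjusted p 0.0156, 0.00139 and 1.29e-07). The order of homozygous and null turns for miR-1270 as well per miRNA read, with 28 and 26 reads in homozygous and 5 and 3 in null libraries.

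On the deposited scale the other pair, miR-421 and miR-326, fell in steps from wild type to homozygous, hemizygous and null. miR-326 had 3551 and 3455 RPM in the wild type, 660.4 and 487 RPM in homozygous, 155 and 356 RPM in hemizygous and 21.1 and 81.9 RPM in null libraries. The differences of miR-326 from wild type were -2.62 ± 0.94, -3.89 ± 0.94 and -6.36 ± 0.94 (adjusted p 0.0194, 0.000229 and 2.12e-10). No libraries of neighbouring genotypes overlap in that order on that scale. miR-421 had 355 and 302 RPM in the homozygous (-2.45 ± 0.97, adjusted p 0.0369) and 77.6 and 217 RPM in the hemizygous libraries (-3.78 ± 0.97, adjusted p 0.000577). In both miRNAs the homozygous and hemizygous genotypes were each called higher than the null on that scale. The hemizygous was not called different from the homozygous. Per miRNA read the hemizygous and null pairs of both miRNAs overlap. Of 1000101 and 1833057 hemizygous miRNA reads, 212 and 269 were miR-326 and 106 and 164 miR-421. Of 165317 and 137655 null miRNA reads, 29 and 61 were miR-326 and 9 and 16 miR-421. The homozygous falls of miR-421, miR-326, miR-1270 and miR-2110 lost their call without any 1 of the wild-type or homozygous libraries, with adjusted p from 0.0575 to 0.306 and differences between -2.32 and -3.65. For miR-421 the same held without either null library (0.0542 and 0.0546).

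The sixth member called lower was miR-3143, named for that reason. Its reads numbered 18 and 2 in the wild type, 0 in both homozygous libraries, 8 and 0 in hemizygous and 13 and 11 in null libraries. The homozygous difference was -2.15 ± 0.84 log2 units (adjusted p 0.0336), a size that depends on the 1 RPM added before the log. At this depth a count of 0 allows up to 3 reads, which exceeds the wild-type replicate 2.

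The 2 members called higher in the homozygous cells were miR-4521 and miR-1268b, both not called in the null. miR-4521 had 732 and 3090 RPM in the wild type, 9100.1 and 5384 RPM in the homozygous (2.22 ± 0.86, adjusted p 0.0319) and 863 and 8114 RPM in the hemizygous libraries (0.82 ± 0.86, adjusted p 0.526). The homozygous pair lay above the wild-type pair and the hemizygous pair spanned it. miR-1268b, at chr17:80098831-80098850 (+) inside CCDC40, had only 2 and 10 reads in the wild type and 30 and 19 in the homozygous libraries (2.40 ± 0.89, adjusted p 0.0251). Its mature sequence is cGGGCGUGguggugggggug, with the seed in capitals, shown as that of 1 of the 2 rises. Both calls were lost when any 1 wild-type, homozygous or null library was left out, with adjusted p from 0.0518 to 0.686. In the null the differences of miR-4521 and miR-1268b from wild type turned from -0.31 and -0.86 to 3.60 and 2.18 when scaled to miRNA reads and to 4.21 and 2.63 with median-ratio scaling.

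Members called lower in the null and not called in the homozygous cells included those with the highest homozygous levels. miR-935 had 1965 and 1807 RPM (0.54 ± 0.92, adjusted p 0.735) and miR-551a 954 and 829 RPM (0.79 ± 0.96, adjusted p 0.624). For miR-302e the homozygous libraries held 2591 and 2080.4 RPM (0.36 ± 0.91, adjusted p 0.828). Each pair lay above the wild-type pair by less than its standard error. With median-ratio scaling miR-935 (0.95, adjusted p 0.00921) and miR-551a (1.20, adjusted p 0.00385) were called higher, and miR-551a also in the fit of the 4 libraries compared (adjusted p 0.0287). miR-1264 had 398 and 290.3 RPM (1.38 ± 1.0, adjusted p 0.33), 264% of its wild-type mean, and was called higher in that 4-library fit (adjusted p 0.00482) and with median-ratio scaling (1.78, adjusted p 0.0316). Of the 26 members called lower in the null and not called here, 8 had a difference below 0. Examples are miR-940, with 359 and 233 RPM (-0.90 ± 0.99, adjusted p 0.577), and miR-3615, with 23.8 and 13.8 RPM against 69.7 and 92.8 RPM in the wild type (-2.09 ± 0.97, adjusted p 0.0855). miR-3615, over an exon of SLC9A3R1, was called lower in 6 of the other fits, including both hemizygous libraries left out in turn, and miR-940 in the fit of the 4 libraries compared (adjusted p 0.0433). miR-636 (-1.24), miR-3937 (-1.10), miR-7706 (-0.85) and miR-941 (-0.80) also lay below the wild type without a call.

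Hairpin side was read from position, since the names do not give it. A mature miRNA centred before the middle of its hairpin was put on the 5′ side; the rule gave the named side for 203 of 203 measured 5p and 269 of 269 measured 3p names with a locus, and the fold gave the same side for 40 of 40 members. Of 47 members with a position, 19 lay on the 5′ side and 28 on the 3′ side. On the 5′ side 3 of 19 were lower in the homozygous cells (miR-3943, miR-2110 and miR-1270), and on the 3′ side 2 of 28 (miR-326 and miR-421). In the same fit 48.9% of 5p names (111 of 227) and 4.33% of 3p names (13 of 300) were called lower. Many 5′-side members were not called lower in the null on the deposited scale, 11 of 19 against 6 of 28 on the 3′ side. In that comparison 89.9% of 5p names, 90.7% of 3p names and 87.2% of all miRNAs were called lower. Among members called lower in the null, 3 of 8 on the 5′ side and 2 of 22 on the 3′ side were lower in the homozygous cells, with medians of 0.17 and 0.42 log2 units. The 5 others on the 5′ side were miR-1243, miR-302e, miR-378c, miR-548k and miR-577, with differences from 0.14 to 1.08. Reads given to miR-302e and miR-378c are uncertain, since each shares its start with a more abundant 3p miRNA (miR-302d-3p and miR-378a-3p). miR-577, at 149 and 380.3 RPM in the wild type and 491 and 366 RPM in the homozygous, is an example (0.83 ± 0.99, adjusted p 0.622). The difference between the sides was not tested.

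**Figure D4:**
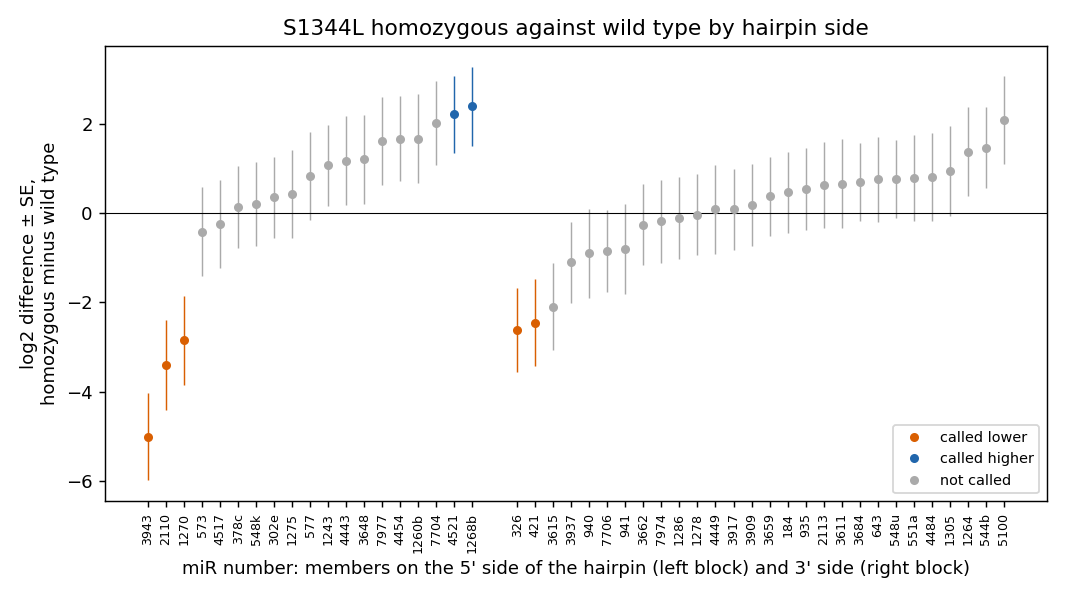
Difference between homozygous S1344L and wild type in log2(RPM + 1) with its standard error from limma (vertical axis) for the 47 members with a position, in order of size within the 5′ side (left) and the 3′ side (right). Orange points were called lower (3 of 19 and 2 of 28), blue points higher (miR-4521 and miR-1268b) and grey points were not called, on the deposited scale. With median-ratio scaling 12 of the 50 members are called higher, and 184 of all 593 miRNAs tested.

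In the hemizygous cells 7 of 50 members were lower than in the wild type and 0 higher by limma, with 0 higher also at an unadjusted p under 0.05 and by voom, where 30.6% of all miRNAs were called lower and 4.04% higher. The median of the members was -0.13 log2 units against -0.89 for all miRNAs and -2.93 for 5p names. The 7 were the 5 of the first set, miR-3615 (-2.70 ± 0.97, adjusted p 0.0184) and miR-636 (-2.37 ± 0.89, adjusted p 0.0248). miR-636 had 37 and 29 reads in the wild type, 12 and 7 in homozygous, 4 and 4 in hemizygous and 1 and 1 in null libraries. miR-3615 had 5.47 and 23.1 RPM in the hemizygous and 3.22 and 14.0 RPM in the null libraries, and its hemizygous call was lost without any 1 wild-type or homozygous library or hemizygous replicate 1 (adjusted p 0.0644 to 0.195). Its null difference (-3.36 ± 0.97, adjusted p 0.00075) turned to 0.32 when scaled to miRNA reads. With miRNA-read scaling 8 members were lower and 1 higher, and with median-ratio scaling 6 were lower and 14 higher. Of all 593 miRNAs tested, 204 were lower and 108 higher with the first scaling, and 174 and 189 with the second.

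The hemizygous pair differed widely, with hemizygous replicate 1 below replicate 2 by a median of 1.93 log2 units over all miRNAs. Without replicate 1 the median difference from the wild type was 0.26 log2 units in the members and 0 in all miRNAs. Without replicate 2 it was -1.02 and -1.91. miR-935 had 519.9 and 2767 RPM (-0.11 ± 0.92, adjusted p 0.949) and miR-551a 228 and 786 RPM (-0.28 ± 0.96, adjusted p 0.878). For miR-302e the pair held 659 and 2837 RPM (-0.41 ± 0.91, adjusted p 0.796). In these 3 members the hemizygous pair spans the wild-type pair, and with median-ratio scaling their differences turned to 1.20, 1.03 and 0.91. The summed level was 12014 ± 9356 RPM in the hemizygous and 16786 ± 3866 RPM in the homozygous cells (SD, n = 2), log2 differences of -0.56 and 0.16 from the wild type (exact permutation p 1.0 for each). Without miR-4521 the homozygous difference turned to -0.44, and without hemizygous replicate 1 the hemizygous difference turned to 0.33.

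Set against each other, the hemizygous and homozygous cells differed in 0 of 50 members by limma (0% of all 594 called in either direction, and 0 by voom). At an unadjusted p under 0.05, 1 member was lower, miR-2113, named for that reason, with 54.5 and 54.7 RPM in the homozygous and 4.74 and 20.5 RPM in the hemizygous libraries. A missed threshold does not show that the genotypes are alike. Without hemizygous replicate 2 the median difference was -1.57 log2 units in the members and -1.81 in all miRNAs. Without hemizygous replicate 1 it was 0.02 and 0.13. Under both other scalings 0 of 593 miRNAs were called in either direction.

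Against the null, 33 of 50 members were higher in the homozygous cells and 2 lower, where 76.3% of all miRNAs were called higher and 2.02% lower. In the hemizygous cells 23 were higher and 1 lower, where 63.8% and 1.01% of all were. These comparisons share the null libraries, so each member's own values are given. miR-1264 had the largest homozygous difference from the null (7.14 ± 1.0, adjusted p 1.73e-11) and 6.41 ± 1.0 in the hemizygous cells (adjusted p 3.38e-09). The null libraries held 0 and 2 reads of it, so these sizes depend on the 0.5 of a read and the 1 RPM added before the log. miR-551a differed by 6.73 ± 0.96 and 5.67 ± 0.96 log2 units, and miR-935 by 6.21 ± 0.92 and 5.56 ± 0.92. The lower members were miR-3143 in both (-3.07 ± 0.84 and -1.93 ± 0.84, adjusted p 0.000445 and 0.0341) and miR-3662 in the homozygous cells (-1.97 ± 0.91, adjusted p 0.0378). Both rest on few reads, 13 and 11 for miR-3143 and 19 and 22 for miR-3662 in the null. Scaled to miRNA reads, 13 members were higher and 16 lower in the homozygous and 11 higher and 19 lower in the hemizygous cells, and with median-ratio scaling 12 and 21 and 11 and 20. Of all 593 miRNAs tested, 217 were higher and 183 lower in the homozygous and 195 and 188 in the hemizygous cells with the first scaling. With the second scaling 204 and 193, and 200 and 194, were. Leaving out hemizygous replicate 1 moved the hemizygous median from 1.88 to 2.96 log2 units in the members and from 2.89 to 3.97 in all miRNAs. The 1 member lower in the hemizygous cells, miR-3143, lost its call in 6 of the 8 fits that leave out a library, in the 4-library fit and with a pseudocount of 5 RPM, each with 0 lower. The homozygous count of lower members ran from 1 to 6, with 6 without hemizygous replicate 2 and 5 without hemizygous replicate 1. It was 1 without either wild-type library, either homozygous library or null replicate 2.

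A fixed list of 26 names known to resemble tRNA, rRNA or other RNA had 5 measured members, miR-1260b, miR-3648, miR-4454, miR-5100 and miR-7977. None of the 5 was called against the wild type in any mutant on the deposited scale, where 87.2% of all miRNAs were called lower in the null. Under both other scalings 4 of the 5 were called higher in the null, where 80 and 123 of all 593 miRNAs were. The differences were 2.82 (miR-1260b), 3.87 (miR-3648), 2.93 (miR-4454) and 3.59 (miR-7977) log2 units when scaled to miRNA reads, and miR-5100 was not called (2.27). On the deposited scale the median difference of the 5 in the null was -0.60 log2 units (-1.35 to 0.07), against -2.76 for all members. In the homozygous cells it was 1.67 (1.21 to 2.10). There 3 of 5 were called higher than in the null, where 76.3% of all miRNAs were. miR-7977 had 41.7 and 154 RPM in the wild type, 352 and 176 RPM in homozygous, 55.0 and 317 RPM in hemizygous and 42.5 and 103 RPM in null libraries. miR-3648, which lies in the spacer of the ribosomal RNA precursor, had 19.9 and 41.5 RPM in the wild type and 26.8 and 33.9 RPM in the null. For both the null pair overlapped the wild-type pair. For miR-5100 the wild-type libraries held 5 and 137 reads, so replicates of 1 genotype can differ more than genotypes do.

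Replicates of some members differed in a shared direction. In 10 members (miR-1272, miR-1275, miR-3143, miR-3662, miR-3917, miR-4449, miR-4484, miR-4517, miR-573 and miR-7974) replicate 1 exceeded replicate 2 in both the wild-type and the hemizygous pair, that is in 20.0% of members against 2.57% of the 544 other miRNAs. None of the 10 was called in the null on the deposited scale, where 87.2% of all miRNAs were called lower. All 10 were called higher there with miRNA-read scaling (4.42 to 5.81 log2 units) and with median-ratio scaling (4.86 to 6.39). Under those scalings 80 and 123 of all 593 miRNAs were called higher. The wild-type pair, by which the 10 were chosen in part, enters these calls. The shared direction was seen as well in 5 of the 17 names set aside (miR-12136, miR-1248, miR-1291, miR-3609 and miR-3651). miR-7974 had 729 and 144 RPM in the wild type, 347 and 235 RPM in homozygous, 1004 and 215 RPM in hemizygous and 358 and 1430.1 RPM in null libraries. miR-4517 had 147 and 50.1, 72.6 and 72.7, 208 and 39.0, and 132 and 287 RPM in the same order. Summed, the 10 had 1520.0 and 365 RPM in the wild type, 745 and 678 RPM in homozygous, 2211 and 533 RPM in hemizygous and 1052 and 3468 RPM in null libraries. The wild-type and hemizygous pairs chose the 10, so only the homozygous and null sums are free of that choice: the homozygous pair was close, and the null pair ran in the opposite direction. In the null, replicate 1 minus replicate 2 had a median of -0.8 log2 units over all 594 miRNAs and -1.0 in the members. That direction is thus not particular to the 10. In summed RPM, hemizygous replicate 1, the library with fewer miRNA reads per denominator, is the highest outside the null. The part of library make-up in this was not tested.

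**Figure D5:**
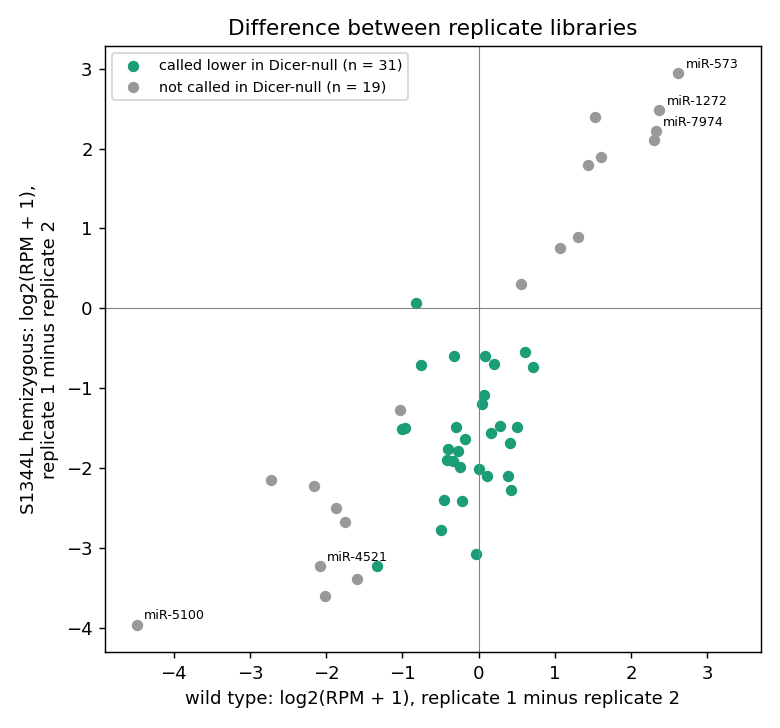
Replicate 1 minus replicate 2 in log2(RPM + 1) in the wild type (horizontal axis) and in the S1344L hemizygous cells (vertical axis) for each of the 50 members. Grey points were not called in the null and green points were called lower. The 10 points at the upper right are the members in which replicate 1 is higher in both pairs. All of them were not called in the null on the deposited scale and called higher there under both other scalings, where 80 and 123 of all 593 miRNAs were.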

How the data were processed

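Small RNAs of H1 cells were sequenced in 8 libraries from independent RNA samples, per the labels' protocols. The p-values rest on the spread between those samples, pooled over miRNAs. The fitted prior degrees of freedom were infinite. Each miRNA therefore took the variance of the trend at its level, not that of its own replicates. Cutadapt, limma and hg38 are named in the submitters' processing notes. For the aligner, annotation, versions and denominators, the entry is: not given in the sources used here. What the authors deposited were log2 values, that is log2 of (reads + 0.5) scaled by a denominator to RPM, as read from the values. Whole reads were recovered (largest distance 7.31e-09); denominators were 751354 to 1399486. The plan assumed RPM, so the log2 values were turned back to RPM. Differences were tested with limma 3.58.1 (R 4.3.3) on log2(RPM + 1) of 594 miRNAs, 1 fit of all 8 libraries with a variance trend, two-sided, called at a Benjamini-Hochberg adjusted p under 0.05, after a check on simulated data. Errors are standard errors of the fit, which are thus not a member's own spread, or SD over 2 libraries. Hairpins were folded with ViennaRNA 2.7.2. Genes around members come from GENCODE v29, sequences and positions from RefSeq (GRCh38.p14, the same assembly as hg38). Members, lists and the naming rule were chosen with earlier results of these data known. The rule names the 8 most abundant members, those called higher against wild type, the 6 largest called falls per mutant, the 6 members (from 20 RPM in the wild type) with null differences nearest or above 0, and the extremes of homozygous against null; members outside it are examples chosen after their values were seen. Alternatives were other pseudocounts, filters, scalings, fits, leaving out each library and a replicate block.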

Additional observations from a re-analysis of the deposited data

How the results depend on the processing

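With reads scaled to the miRNA total, the counts in the null against the wild type were 13 lower and 18 higher, in the hemizygous 1 higher, in homozygous against null 16 lower and 13 higher, and in hemizygous against null 19 and 11. With median-ratio scaling they were 10 and 20 (null), 12 higher (homozygous), 14 higher (hemizygous), 21 and 12, and 20 and 11. Counts over all miRNAs under both scalings stand with each comparison above. The summed level differed by 0.17, 0.76, 1.85 and 2.46 log2 units under these scalings (hemizygous, then null), by 0.58 in the homozygous with median-ratio scaling, and by -0.44 there without miR-4521. Among the members given in every library, those that changed sign with a call in either fit were miR-1268b in the null (2.18 and 2.63), miR-4521 (3.60 and 4.21), miR-3615 (0.32 and 0.91), miR-2110 (0.36), and in the hemizygous miR-302e (0.91), miR-551a (1.03) and miR-935 (1.20). A 50 RPM filter, which leaves fewer members to count, gave 17 lower in the null, 1 higher in the homozygous, 0 lower and 18 higher in homozygous against null, and 0 and 12 in hemizygous against null. Fits of the 4 libraries compared gave 9 higher (homozygous), 2 higher (null), 7 lower (homozygous against null), and 0 lower and 15 higher (hemizygous against null). A pseudocount of 5 RPM gave 2 higher in the null and 0 lower in hemizygous against null. Voom, added after seeing the data, gave 1 lower in homozygous against null. The planned edgeR test was not run, since the table holds log2 values.

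Leaving out each library in turn, where a lone sample is assumed to vary like the other groups, gave 1 to 8 lower and 0 to 3 higher for homozygous cells, 5 to 13 and 0 to 4 for hemizygous, 24 to 32 and 0 to 3 for null, 0 to 26 and 0 to 2 in hemizygous against homozygous, 1 to 6 and 22 to 36 in homozygous against null, and 0 to 6 and 16 to 36 in hemizygous against null. Summed differences ran from -0.07 to 0.40, from -1.45 to 0.33 and from -2.72 to -1.39. Replicate numbers pair the samples by number only: same-numbered deviations correlated at 0.62 for hemizygous with wild type and between -0.11 and 0.10 for the other genotype pairs. A replicate block gave 1 member higher in the null, miR-4449 (1.96, adjusted p 0.0349), and 4 lower in homozygous against null, and every other count stayed within 1.5 times. Null libraries held 137655 and 165317 reads, so 1 read there is 0.715 to 1.33 RPM, which limits members under about 5 RPM.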
